A study of Rattus norvegicus with 12 samples.

Results

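Nitric oxide is made from arginine by the nitric oxide synthases, of which Nos1 is the neuronal form and Nos3 the endothelial form. It binds the heme of soluble guanylate cyclase, a dimer of an alpha and a beta subunit, which then makes cyclic GMP (cGMP), and carbon monoxide (CO) binds the same heme as a much weaker activator. cGMP acts through its protein kinases, Prkg1 and Prkg2, and is broken down by phosphodiesterases such as Pde5a. In the striatum, medium spiny neurons are known to hold much soluble guanylate cyclase, and Nos1 sits in a sparse class of interneurons that also make somatostatin and neuropeptide Y.

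The genes described here were Gucy1a3 and Gucy1b3 (now Gucy1a1 and Gucy1b1, the alpha and beta subunits of the cyclase), Nos1, Nos3, Prkg1, Prkg2 and Pde5a. Probes were chosen by the gene name in the scanner files or its current symbol, which gave 9 probes for the 7 genes among 40998 probes and 35176 distinct genes or transcripts. Background was cleared on 1 or more arrays by 7 of these 9 probes and on none by the other 2. RNA came from the striatum of male Sprague-Dawley rats, both sides together, taken after perfusion with saline. For 40 minutes a rat had breathed air, CO at 1000 ppm (low-dose CO below), CO at 3000 ppm (high-dose CO) or oxygen at 5% O2 (low oxygen). Tissue was taken at 0 h after air, at 0, 2, 6 and 12 h after each dose of CO, and at 0, 2 and 6 h after low oxygen. Each of these 12 combinations was 1 rat on 1 one-colour array, so no combination has a replicate, and the air rat at 0 h is the only control. The labels give no age, and all rats were anesthetized with sodium pentobarbital before the brain was removed.

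A level below is the log2 processed signal of a probe minus the 75th percentile of its array, so that 0 is the signal at that percentile. Levels of a probe can be compared between arrays, but not with the level of another probe.

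The arrays lay on 3 slides of 4 arrays each. Air and high-dose CO at 0, 2 and 6 h were on slide 1, which was scanned in a separate session, all of low-dose CO was on slide 2, and high-dose CO at 12 h was on slide 3 with low oxygen. Between 72.9% and 78.7% of spots were well above background on each array. All 13 measured markers of medium spiny neurons were well above background on every array, but their level was uneven. Their median difference from air was -3.27 in low oxygen at 0 h and -0.82 in low-dose CO at 6 h, and it lay between 0.14 and 1.05 on the other 9 exposed arrays. The summed signal of the list, in multiples of each array's 75th percentile, was 20.9 in low oxygen at 0 h, 101 in low-dose CO at 6 h and from 172 to 381 elsewhere. On those arrays hypothalamic markers stood 1.60 and 2.79 above air by their median, with 3 of 4 above air on each, and septal and thalamic neuron markers were above air in 6 of 6 and 4 of 6. On 4 other arrays, low-dose CO at 0 and 2 h and high-dose CO at 2 and 6 h, all 6 of these were at least 2-fold below air, with medians from -3.52 to -2.27. Choroid plexus and ependyma markers were highest on the air array, with a summed signal of 520 against 3.73 to 444 elsewhere, and 7 of 7 were below air on 10 exposed arrays and 6 of 7 on low oxygen at 6 h. Although the rats were perfused, 5 of 5 blood cell markers were above air in high-dose CO at 6 h. Their median there was 1.46, with Hbb at 5.29 and Alas2 at 3.58. In bulk tissue, fewer cells of a type and less RNA per cell cannot be told apart.

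Probe sequences are given for the members whose probe lies in coding sequence, because the probe decides which part of each messenger RNA was read. All are 5′ to 3′, as the scanner files hold them, with positions on the rat build rn4.
Nos1, chr12:39810923-39810982, minus strand: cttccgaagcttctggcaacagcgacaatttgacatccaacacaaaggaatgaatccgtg
Nos3, chr4:6159286-6159345, minus strand: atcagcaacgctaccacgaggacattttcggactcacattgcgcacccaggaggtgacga
Gucy1a3 probe 2, chr2:173769025-173769084, minus strand: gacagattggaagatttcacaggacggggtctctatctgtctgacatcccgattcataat
Prkg1 probe 1, chr1:235765239-235765298, minus strand: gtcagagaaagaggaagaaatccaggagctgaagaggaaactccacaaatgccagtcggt
Prkg2, chr14:11992790-11992849, plus strand: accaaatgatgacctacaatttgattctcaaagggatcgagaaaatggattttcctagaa
Pde5a probe 1, chr2:219515832-219515891, plus strand: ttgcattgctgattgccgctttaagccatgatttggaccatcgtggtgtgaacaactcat
Pde5a probe 2, chr2:219409552-219409611, plus strand: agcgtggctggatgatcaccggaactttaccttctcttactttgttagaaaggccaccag
Nos1 and Nos3 have 10 spots each on every array, which gives a technical spread, and each other member probe has 1 spot. Probe 2 of Pde5a is described in the files as reading the A1 isoform, and the probe of Prkg1 lies in the stretch that encodes the amino end of the I alpha form. Both of these 5′ probes were the dark ones. Gucy1a3 probe 1 (chr2:173755356-173755415) and the Gucy1b3 probe (chr2:173683711-173683770) lie on the minus strand of the same chromosome as Gucy1a3 probe 2.

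**Figure D1:**
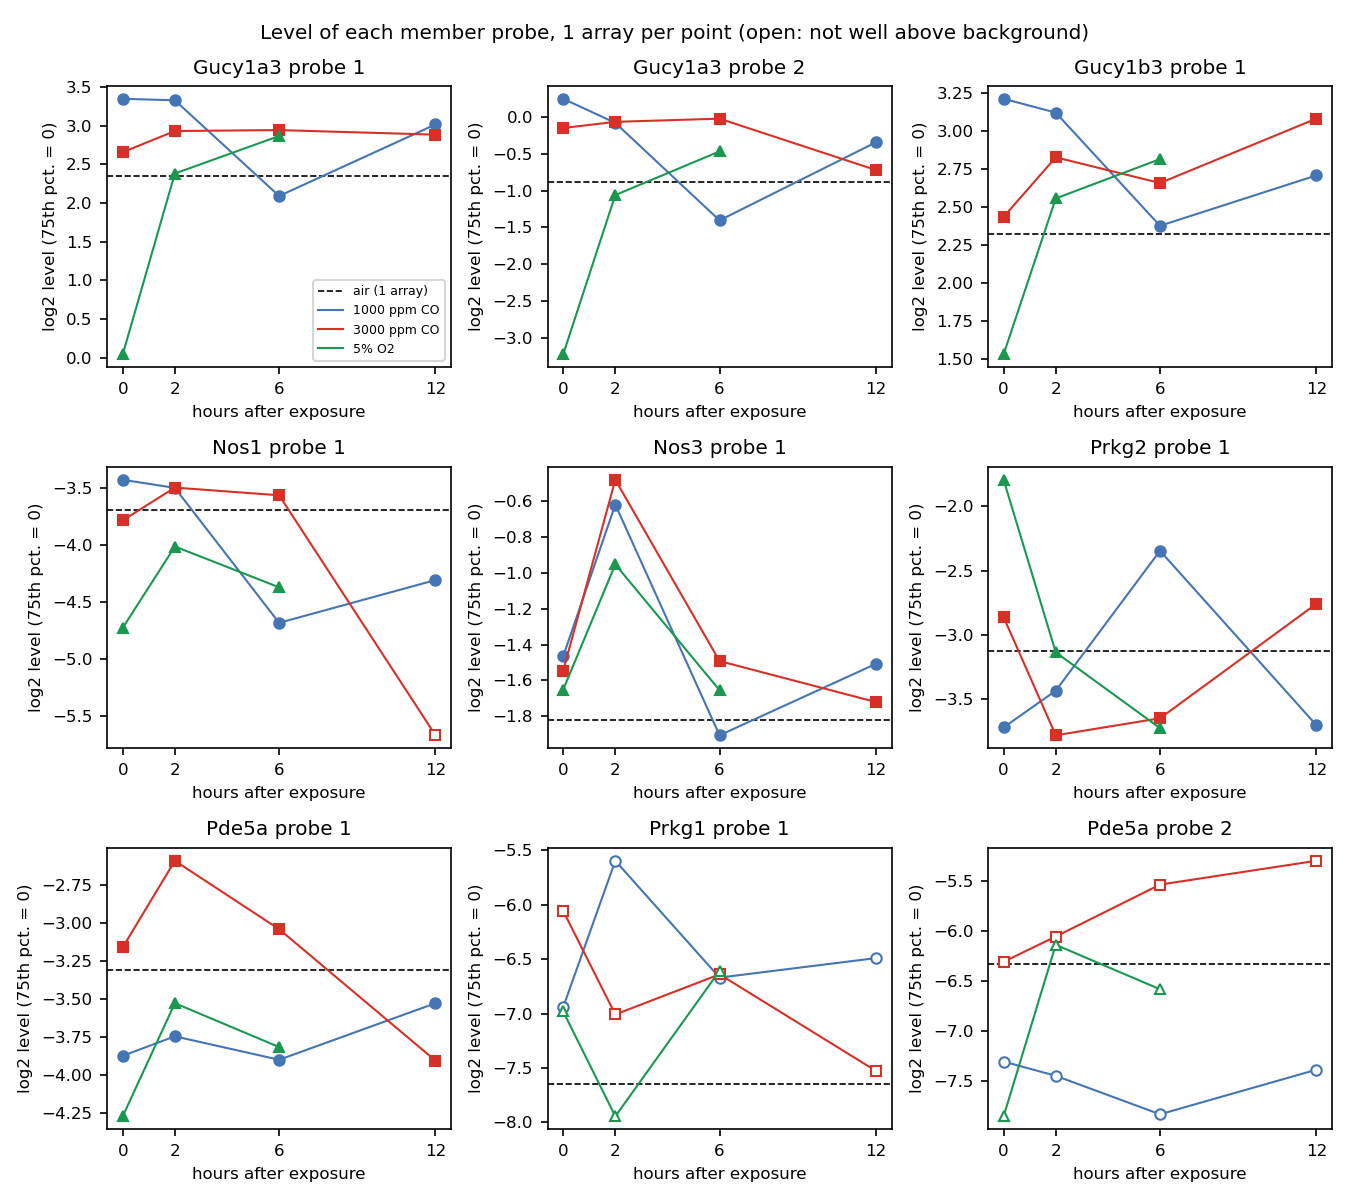
Level of each of the 9 member probes (log2, array 75th percentile at 0) against hours after exposure, 1 array per point, with the air array as a dashed line and open symbols for values not well above background. Both Gucy1a3 probes are lowest in low oxygen at 0 h, the Nos3 probe peaks at 2 h after each exposure, and Prkg1 probe 1 and Pde5a probe 2 have only open symbols.

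Nos3, the endothelial synthase, was highest on the 3 arrays taken at 2 h. Its level was -1.82 in air. It was -1.47, -0.62, -1.90 and -1.51 at 0, 2, 6 and 12 h after low-dose CO, and -1.55, -0.48, -1.49 and -1.72 at the same hours after high-dose CO. It was -1.65, -0.95 and -1.65 at 0, 2 and 6 h after low oxygen. The 3 arrays at 2 h lay above the other 9 with no overlap, a pattern seen in 0.617% of the 32230 probes well above background on at least 3 arrays.

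Each step from 0 to 2 h was between arrays of 1 slide. Nos3 was 1.79-fold higher at 2 h than at 0 h after low-dose CO, 2.09-fold higher after high-dose CO and 1.62-fold higher after low oxygen, a gain of at least 1.5-fold after all 3 exposures that 0.465% of probes shared. At 6 h it was 1.04-fold its 0 h level after high-dose CO and 1.00-fold after low oxygen, and its difference from 0 h after low-dose CO was -0.44. The SD over the 6 to 10 spots of Nos3 used on an array was 0.0235 to 0.0734, which is technical error only. Against air, Nos3 was at least 2-fold higher at 2 h after low-dose CO (2.29-fold, against 4.22% of 34778 probes higher by that much) and after high-dose CO (2.52-fold, against 2.29%), and 1.82-fold higher at 2 h after low oxygen.

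In the limma model with exposure and time as additive factors, Nos3 was 0.87 ± 0.16 (SE) higher at 2 h than at 0 h on the log2 scale, with an unadjusted p of 0.000928 and an adjusted p of 0.827 over the 32230 probes. The adjusted p was 0.294 to 1.00 over 25 alternative settings, so the difference did not pass, although it was higher in 3 of 3 exposures. Of 9 endothelial markers, 1 was higher at 2 h than at 0 h after all 3 exposures and 0 by at least 1.5-fold, and the median of their changes was 0.11 after low-dose CO, -0.25 after high-dose CO and -0.16 after low oxygen. Of 8 mural cell markers, 2 were higher after all 3 exposures and 0 by at least 1.5-fold, with medians of -0.02, 0.29 and 0.09. Esam, an endothelial adhesion molecule, was the endothelial marker higher in all 3 (0.40, 0.48 and 0.33), and Kdr, a receptor for vascular endothelial growth factor, differed by 0.13, -0.66 and -0.68. Over the 12 arrays, Nos3 followed the median level of both vascular lists together with Pearson's r = 0.72 (permutation p = 0.00963, adjusted p = 0.0337 over 14 relations) but Spearman's rho = 0.57 (permutation p = 0.0563, adjusted p = 0.113). Without the 2 arrays farthest from the median of the lists, low-dose CO at 2 and 6 h, r was 0.56, and without high-dose CO at 2 h it was 0.63 and no longer passed (adjusted p = 0.144). Centred within slides, r was 0.75 and did not pass (adjusted p = 0.0691, exact permutation within slides).

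**Figure D2:**
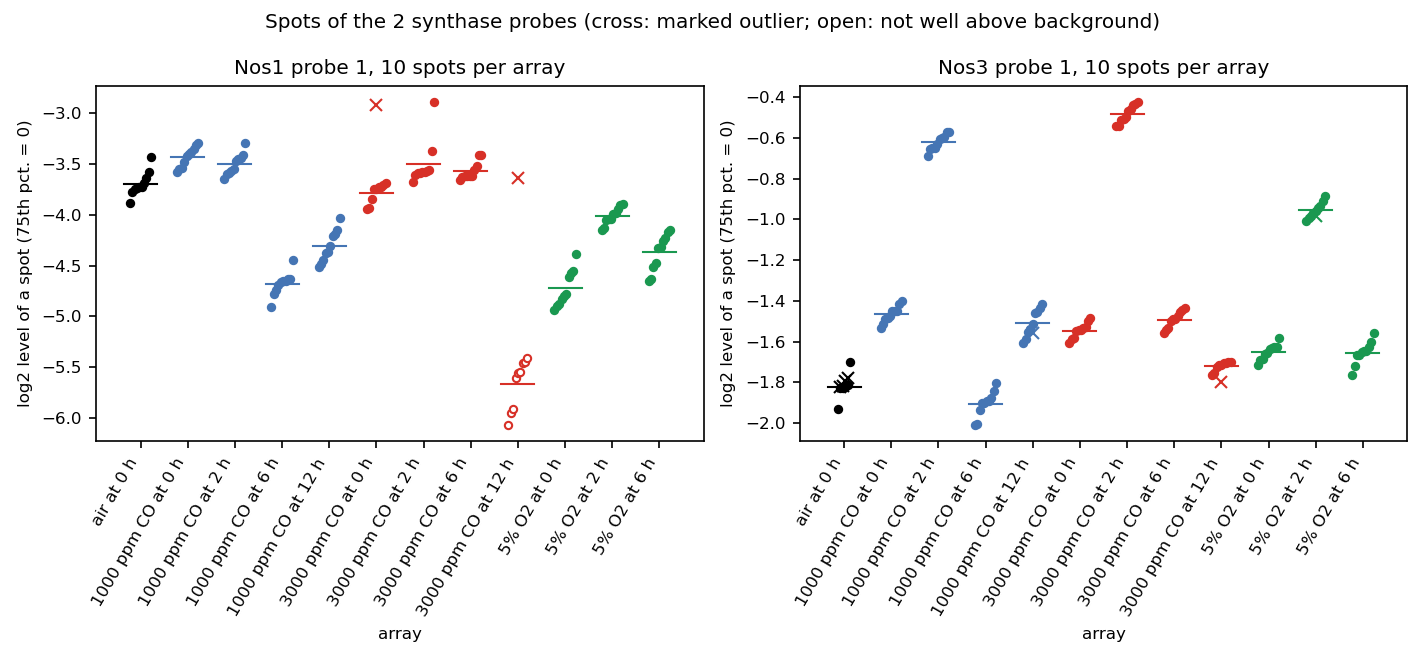
Log2 level of each of the 10 spots of the Nos1 and Nos3 probes on the 12 arrays, with a bar at the mean of the spots used, crosses for spots marked as outliers and open circles for spots not well above background. The Nos3 spots at 2 h sit above all others, and the Nos1 spots of high-dose CO at 12 h are open except for 1 cross at -3.64.

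Nos1, the neuronal synthase, was a dim probe with its lowest values in high-dose CO at 12 h, low oxygen at 0 h and low-dose CO at 6 h. Its level was -3.69 in air. It was -3.43, -3.50, -4.68 and -4.31 at 0, 2, 6 and 12 h after low-dose CO, and -3.79, -3.50, -3.57 and -5.66 after high-dose CO. It was -4.73, -4.01 and -4.37 at 0, 2 and 6 h after low oxygen. All 3 arrays of low oxygen lay below air, as did low-dose CO at 6 and 12 h and high-dose CO at 0 and 12 h. The CO arrays at 0 and 2 h lay within 0.26 of air. The SD over spots on an array was 0.0858 to 0.247.

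On the array of high-dose CO at 12 h, 9 of the 10 Nos1 spots read from -6.07 to -5.41 and were not well above background. The level there was therefore raised to the array's lowest signal among probes well above background, an approximate bound. With it, Nos1 was 3.42-fold lower than in air (4.87% of probes were at least 2-fold lower on this array). The remaining spot read -3.64, was marked as an outlier and was left out. The deposited series value for this array, brought to the same scale, was -3.64 as well, so the deposited value equals that 1 spot and lies above the -3.69 of air. In low oxygen at 0 h Nos1 was 2.04-fold lower than in air, with all 10 spots used.

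In the model Nos1 was lower at 12 h than at 0 h by an estimate of -1.21 ± 0.49 (SE), with an unadjusted p of 0.0407 and a limma adjusted p of 0.846. The model used the measured -5.66 of high-dose CO at 12 h, not the raised value. Without the array of high-dose CO at 12 h the estimate was -0.41, and with the deposited series values it was -0.16. After low-dose CO, where 0 and 12 h share a slide, Nos1 differed by -0.88. Markers of the interneurons that make nitric oxide (Sst, Npy, Chodl, Tacr1) were also low on some of the same arrays. Their median difference from air was -1.14 in low oxygen at 0 h with 4 of 4 below air, -0.71 in high-dose CO at 12 h with 4 of 4 below, and -0.39 in low-dose CO at 6 h with 4 of 4 below. They were below air in 4 of 4 also on 3 arrays where Nos1 was nearer to air, low-dose CO at 12 h, high-dose CO at 0 h and low oxygen at 2 h, by medians of -0.26, -0.13 and -0.58. All 4 were well above background throughout, their summed signal ran from 18.3 in low oxygen at 0 h to 60.4 in low-dose CO at 0 h, and their part in the Nos1 values was not tested.

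Gucy1a3 and Gucy1b3, the subunits of the cyclase, moved together and were lowest in low oxygen at 0 h. Gucy1a3 probe 1 read 2.35 in air. It read 3.35, 3.33, 2.09 and 3.02 at 0, 2, 6 and 12 h after low-dose CO, and 2.66, 2.93, 2.94 and 2.89 after high-dose CO. It read 0.04, 2.38 and 2.87 at 0, 2 and 6 h after low oxygen. The array of low oxygen at 0 h stands far below all others, low-dose CO at 6 h is the next lowest, and 9 of 11 exposed arrays lie above air.

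Gucy1a3 probe 2, in coding sequence, gave the same order at its ends. It read -0.88 in air, then 0.25, -0.08, -1.40 and -0.34 after low-dose CO and -0.15, -0.06, -0.02 and -0.72 after high-dose CO. It read -3.23, -1.06 and -0.47 after low oxygen. Relative to air, low oxygen at 0 h was 4.95-fold lower on probe 1 and 5.08-fold lower on probe 2. The highest array was low-dose CO at 0 h, 1.998-fold above air on probe 1, just under 2-fold, and 2.19-fold on probe 2. The probes correlated at r = 0.97 over 12 arrays and at 0.80 over the 10 without low oxygen at 0 h and low-dose CO at 6 h.

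Gucy1b3, which is needed for a working cyclase with either alpha subunit, had a smaller span. It read 2.32 in air, 3.21, 3.12, 2.38 and 2.71 after low-dose CO, and 2.44, 2.83, 2.66 and 3.08 after high-dose CO. It read 1.53, 2.56 and 2.82 after low oxygen. Only low oxygen at 0 h lay below air, by 1.73-fold, and low-dose CO at 0 h was 1.86-fold above. Gucy1b3 and Gucy1a3 probe 1 correlated at r = 0.93 over the 12 arrays and 0.85 over those 10, and Gucy1b3 and Gucy1a3 probe 2 at 0.85 and 0.48. Both genes of a point come from the same RNA. The low oxygen rat at 2 h read 5.06-fold above the rat at 0 h on Gucy1a3 probe 1, 4.49-fold on probe 2 and 2.04-fold on Gucy1b3.

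In low oxygen at 0 h, 3 of the 7 member probes were at least 2-fold lower than in air (both Gucy1a3 probes and Nos1), against 4.71% of all probes, and 1 was at least 2-fold higher (Prkg2), against 3.83%. On the same array 11 of 13 medium spiny neuron markers were at least 2-fold lower than in air, among them Drd1 at -3.98 and Ppp1r1b at -3.27, larger differences than those of both cyclase subunits. Over all 12 arrays the level of Gucy1a3 followed the median level of these markers with Pearson's r = 0.98 (permutation p = 1e-05, the smallest that 100000 permutations can give, adjusted p = 0.00014 over 14 relations) and Spearman's rho = 0.96 (permutation p = 2e-05). Without the 2 arrays farthest from the median of the list, low oxygen at 0 h and low-dose CO at 6 h, r was 0.87. Gucy1b3 followed them with r = 0.91 (permutation p = 0.00023, adjusted p = 0.00126) and rho = 0.87 (permutation p = 0.00057), and with r = 0.74 without those 2 arrays, where it no longer passed (adjusted p = 0.123). The part of these markers in the cyclase values was not tested. With levels centred within slides, r was 0.98 for Gucy1a3 and 0.96 for Gucy1b3 (adjusted p = 0.00608 each, exact permutation within slides). The 14 relations between members and marker lists include both of Prkg1, whose member probe was not well above background on any array. Neither of those passed. Of the 14 relations, 4 passed by Pearson's r, 5 by Spearman's rho and 3 by r centred within slides. Those that passed by rho alone were Nos1 and Nos3 with medium spiny neuron markers, with rho = 0.69 and 0.71 (permutation, adjusted p = 0.0464 and 0.0432) and r = 0.49 and 0.45 (adjusted p = 0.231 and 0.285).

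By likeness over the 12 arrays, genes near to Gucy1a3 were Drd1 (r = 0.99) and Ppp1r1b (0.99), out of 12065 named genes well above background on all arrays. Those nearest to Gucy1b3 were Rnls (0.98), Me3 (0.98) and Map2k1 (0.98). Nos3 was nearest to Sipa1 (0.94), Hspa12b (0.92) and Adam1a (0.91), and Nos1 to Gabra2 (0.95), Sema3a (0.94) and Sec63 (0.94). Without low oxygen at 0 h and low-dose CO at 6 h, the coefficients of these genes were between 0.91 and 0.96. They are the highest of many and describe these arrays only.

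**Figure D3:**
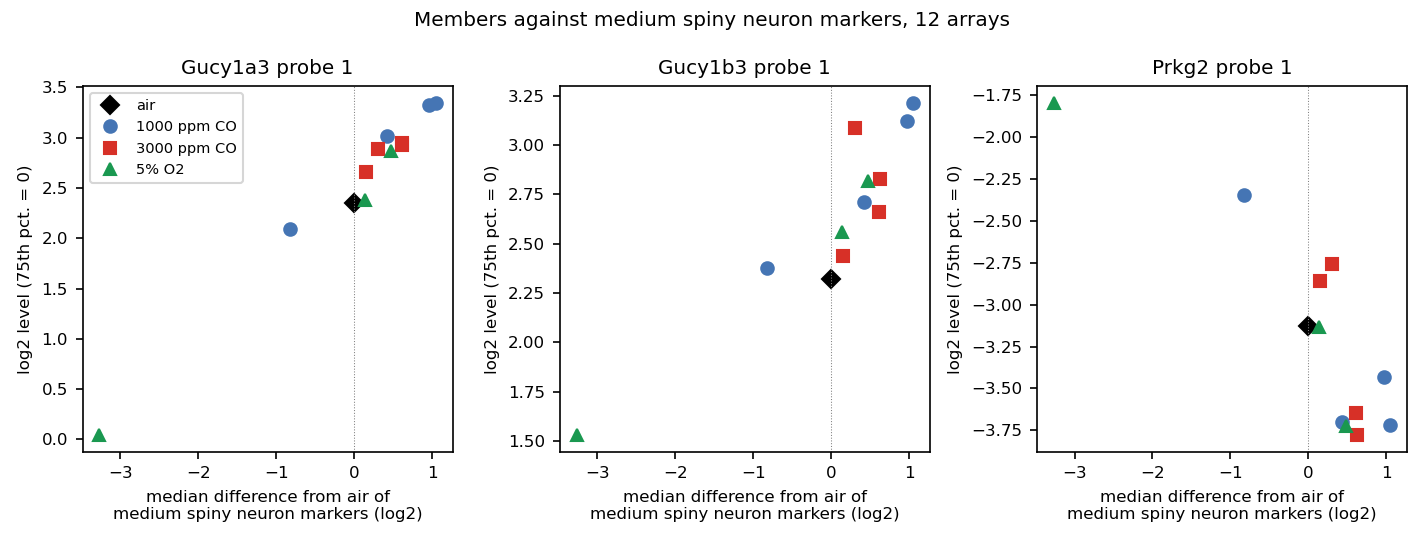
Level of Gucy1a3 probe 1, Gucy1b3 and Prkg2 (log2) on each of the 12 arrays against the median difference from air of 13 medium spiny neuron markers (log2). Both cyclase subunits climb with the markers, Prkg2 runs the other way, and low oxygen at 0 h stands alone at -3.27.

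The 250 bases before the start of each cyclase subunit gene are shown because these genes moved together and are neighbours: both lie on the minus strand of chromosome 2, with 1 entry, a small nuclear RNA, between them in the RefSeq table. Sequences are from RefSeq on GRCr8, and capitals mark matches to a pair of promoter motifs, each searched on both strands. The first is CCAAT, whose matches here are on the other strand. The second is GGGCGG, which may overlap the first.
Gucy1a1, chr2:169779624-169779873, minus strand: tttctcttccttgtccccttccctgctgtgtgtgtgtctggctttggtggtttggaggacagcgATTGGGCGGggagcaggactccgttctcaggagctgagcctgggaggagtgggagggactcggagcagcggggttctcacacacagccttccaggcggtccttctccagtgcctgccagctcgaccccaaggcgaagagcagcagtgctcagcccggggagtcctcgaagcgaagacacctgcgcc
Gucy1b1, chr2:169696988-169697237, minus strand: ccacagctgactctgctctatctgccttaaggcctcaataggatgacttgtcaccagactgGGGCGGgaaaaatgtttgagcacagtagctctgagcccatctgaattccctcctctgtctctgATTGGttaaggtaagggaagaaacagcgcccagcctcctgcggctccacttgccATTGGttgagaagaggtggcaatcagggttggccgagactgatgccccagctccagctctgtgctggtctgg
Gucy1a1 held 1 match to each motif, which overlap, and Gucy1b1 held 2 to CCAAT and 1 to GGGCGG. Over 33465 rat promoters, windows of this length held CCAAT in 34%, GGGCGG in 30.5% and both in 10.1%. A match here describes the letters and was not tested as a binding site.

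Prkg2, the membrane-anchored type II kinase, was highest where the cyclase was lowest. It read -3.13 in air. It read -3.72, -3.43, -2.34 and -3.70 at 0, 2, 6 and 12 h after low-dose CO and -2.86, -3.78, -3.65 and -2.76 after high-dose CO. It read -1.79, -3.13 and -3.72 at 0, 2 and 6 h after low oxygen. The 2 highest arrays were low oxygen at 0 h and low-dose CO at 6 h, the arrays low in medium spiny neuron markers, and 6.25% of probes had these as their 2 highest. Prkg2 was 2.52-fold above air in low oxygen at 0 h. Its r with Gucy1a3 probe 1 was -0.84 over 12 arrays and -0.54 without that pair of arrays, and with Gucy1b3 -0.74 and -0.29.

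Prkg2 followed the medium spiny neuron markers with r = -0.88 (permutation p = 0.00027, adjusted p = 0.00126) and rho = -0.76 (permutation p = 0.00629). Without the 2 low arrays r was -0.60 and no longer passed (permutation, adjusted p = 0.170), so that relation was not shown on the other 10 arrays. Centred within slides, r was -0.85 (adjusted p = 0.0334, exact permutation within slides). Septal and thalamic markers went with Prkg2 on some arrays. They had a median above air on its 3 highest arrays, the third being high-dose CO at 12 h (0.33). On 4 arrays where Prkg2 was below air, low-dose CO at 0 and 2 h and high-dose CO at 2 and 6 h, 6 of 6 were at least 2-fold below air. In high-dose CO at 0 h Prkg2 differed from air by 0.27 and the marker median by -0.22. In low oxygen at 6 h Prkg2 differed by -0.60 and the median by -0.69. In low-dose CO at 12 h these were -0.57 and -0.36, and at 2 h -0.31 and -2.76. The part of these markers in the Prkg2 values was not tested. The genes most like it were Gdf11 (r = 0.96), Ahsa2 (0.94) and Inpp4b (0.93). Its model estimate with the smallest p was -0.66 ± 0.57 (SE) for 2 h against 0 h (limma adjusted p = 0.966). After high-dose CO the difference between 2 h and 0 h was -0.92, after low oxygen -1.34 and after low-dose CO 0.29.

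Prkg1, the type I kinase of vascular smooth muscle and of some neurons, was not measured by its member probe, which was not well above background on any of 12 arrays. A further probe carries an accession as its name and Prkg1 in its description, so it was no member by the rule. It was well above background on all 12 arrays, read -3.35 in air and -4.11 to -3.43 on the exposed arrays, and lay below air on 11 of 11, with differences from -0.77 to -0.08. The air array was thus its highest value, as for 7.62% of all probes, and air has no replicate.

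Pde5a, the cGMP-specific phosphodiesterase, split by slide. Probe 1 read -3.31 in air, -3.88, -3.75, -3.90 and -3.53 after low-dose CO, and -3.16, -2.59, -3.04 and -3.91 after high-dose CO. It read -4.27, -3.53 and -3.82 after low oxygen. The 4 arrays of slide 1 (air and high-dose CO at 0, 2 and 6 h) were the 4 highest, as for 7.51% of probes, and high-dose CO at 12 h, on slide 3, read 0.87 below 6 h (difference -0.87).

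In the model Pde5a was 0.59 ± 0.24 (SE) higher after high-dose than after low-dose CO (unadjusted p = 0.0447, limma adjusted p = 0.246) and 0.78 ± 0.27 higher after high-dose CO than after low oxygen (unadjusted p = 0.0228, limma adjusted p = 0.291). With scan session as a factor the estimates were -0.38 and -0.35. Among the high-dose arrays, both then rest on 12 h alone, the only one not on slide 1. The first equals the difference between the doses at 12 h (-0.38), which was 0.72, 1.16 and 0.86 at 0, 2 and 6 h. Within slide 3 the CO array at 12 h read below 2 of the 3 arrays of low oxygen. Without low-dose CO at 12 h, or without high-dose CO at 12 h, the first estimate was 0.91 and passed (limma adjusted p = 0.0239), as did 8.13% and 8.14% of all probes with those arrays left out. In either case the model fits the remaining 12 h array exactly. Both fits thus compare the same arrays at 0, 2 and 6 h and are the same result. Slide and exposure cannot be told apart for most of these arrays. Cortical neuron markers were above air in 5 of 5 on the 2 highest arrays, high-dose CO at 2 and 6 h, by medians of 1.76 and 1.30. Their median was -1.05 in high-dose CO at 0 h, where Pde5a was above air. It was 0.49 in low-dose CO at 0 h, where Pde5a was below air. The part of these markers in the Pde5a values was not tested. The second Pde5a probe was not well above background on any array. Pde5a probe 1 was most like Hmgb2 (r = 0.95), Mcmbp (0.92) and Scpep1 (0.91).

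Over the 7 member probes tested, none passed an adjusted p of 0.05 in any of the 9 contrasts of the limma model. The share of all 32230 probes that passed was 0.0155% for 2 h, 0.0186% for 6 h and 0.0124% for 12 h against 0 h. Against air it was 0.13% for low-dose CO, 0.00621% for high-dose CO and 0.0031% for low oxygen. It was 4.42% for high-dose against low-dose CO, 0% for high-dose CO against low oxygen and 0.31% for low-dose CO against low oxygen. At an unadjusted p under 0.05, 1 member passed for 2 h (Nos3, where 3.74% of probes passed) and 1 for 12 h (Nos1, 5.62%), but 0 for 6 h (2.76%). Pde5a passed for high-dose against low-dose CO (19.2%) and for high-dose CO against low oxygen (14.6%). No member passed against air after low-dose CO (11.7%), high-dose CO (4.38%) or low oxygen (7.34%), or for low-dose CO against low oxygen (12.4%). For Gucy1a3 probe 1, the brighter of its probes, the smallest p was for low-dose CO against low oxygen, with an estimate of 1.17 ± 0.63 (SE, limma adjusted p = 0.486). For probe 2 it was for high-dose CO against low oxygen, with 1.42 ± 0.69 (limma adjusted p = 0.379). For Gucy1b3 it was for low-dose CO against low oxygen, with 0.52 ± 0.35 (limma adjusted p = 0.553).

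**Figure D4:**
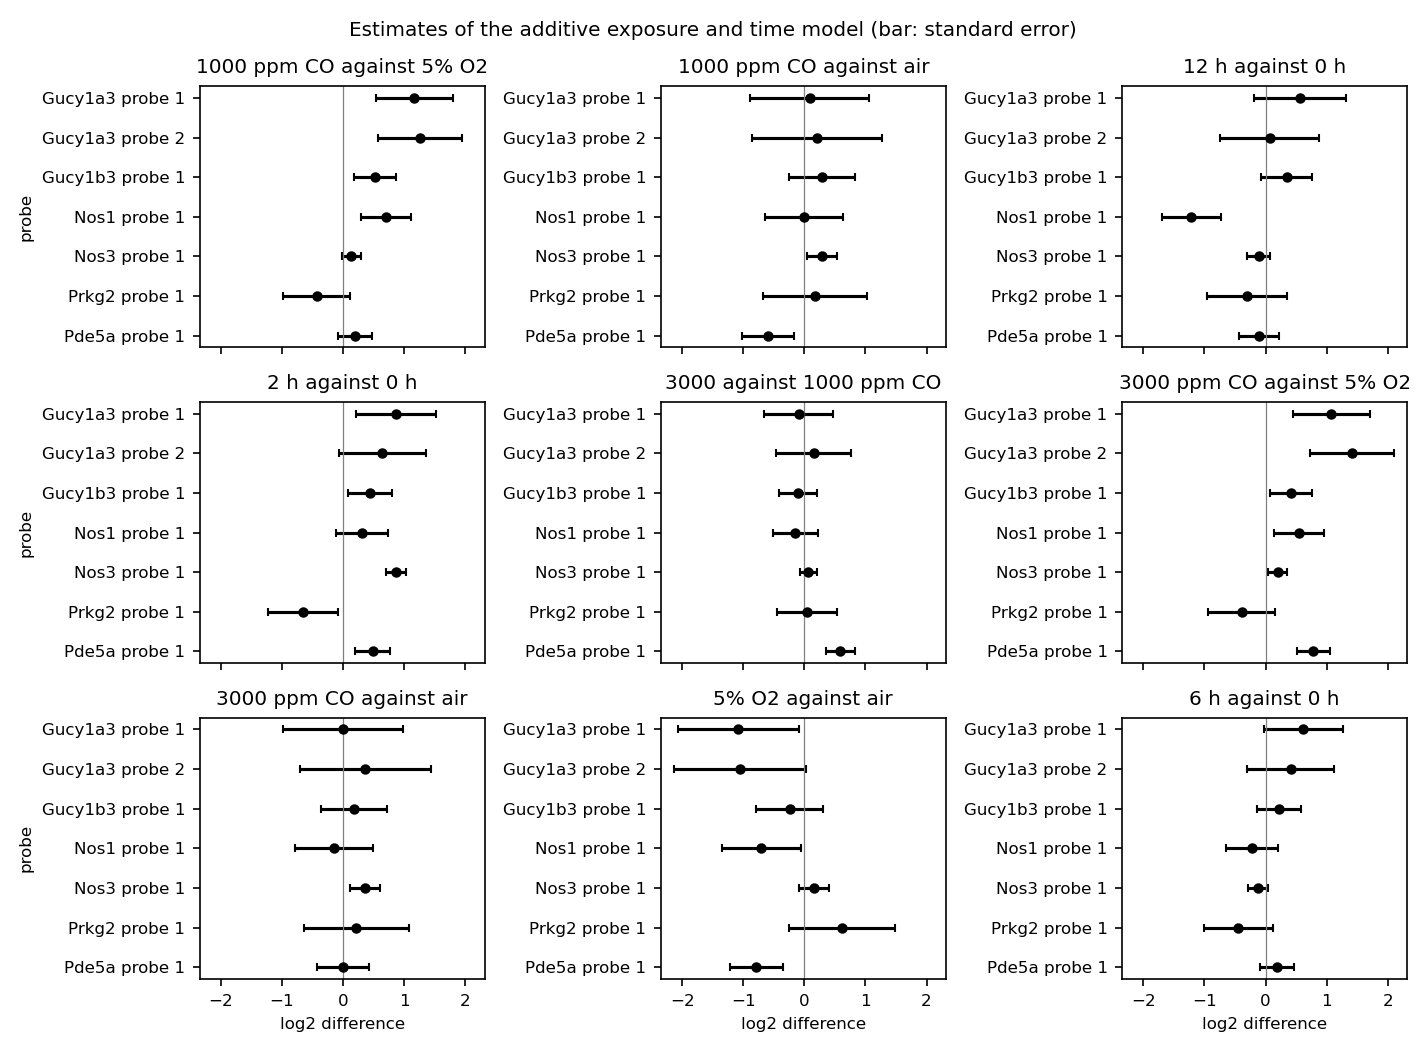
Estimates (points) and standard errors (bars) of the 7 tested member probes in the 9 contrasts of the additive model, as log2 differences. The Nos3 estimate of 0.87 at 2 h is the one farthest from 0 in multiples of its error, and Gucy1a3 and Prkg2 have the widest bars.

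Against air, with no test, 4 of 77 pairs of member probe and exposed array were at least 2-fold higher and 4 at least 2-fold lower. The higher pairs were Gucy1a3 probe 2 in low-dose CO at 0 h (where 3.19% of probes were as much higher), Nos3 at 2 h after each dose of CO, and Prkg2 in low oxygen at 0 h. The lower ones were Nos1 in high-dose CO at 12 h and Nos1 and both Gucy1a3 probes in low oxygen at 0 h. No member reached 2-fold on the other 6 arrays. There, between 1.2% and 3.13% of all probes were at least 2-fold higher: 2.48% and 2.8% at 6 and 12 h after low-dose CO, 1.72% and 3.13% at 0 and 6 h after high-dose CO, and 2.06% and 1.2% at 2 and 6 h after low oxygen. The shares at least 2-fold lower were 6.21% and 4.48%, 1.93% and 3.22%, and 1.84% and 2.64% in that order. On the arrays with members in 1 direction only, 5.51% and 5.78% of probes were lower at 0 and 2 h after low-dose CO and 3.23% at 2 h after high-dose CO, and 2.98% were higher at 12 h after high-dose CO, with 0 members in each. In low oxygen at 0 h, 4 of 7 members (both Gucy1a3 probes, Gucy1b3 and Pde5a) had their lowest value, as did 12.8% of probes, and Prkg2 its highest, as did 12.5%. Nos1 alone was lowest in high-dose CO at 12 h, as were 9.03% of probes. Both Gucy1a3 probes had low oxygen at 0 h and low-dose CO at 6 h as their lowest pair of arrays, as did 7.76%.

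The wider pathway was read from a list of 68 genes, of which 65 were measured and 51 tested by their brightest probe. Gucy2d, a membrane guanylate cyclase whose probe is shared with Gucy2e, alone passed in the model, with 1.25 ± 0.18 (SE, limma adjusted p = 0.0150) for high-dose against low-dose CO. Its probe was not well above background on any of the 4 arrays of low-dose CO and was on 3 of 4 of high-dose CO. With the low-dose values raised to the same kind of approximate bound, the difference was 1.30-fold. The list thus had 1.96% passing against 4.42% of all probes, and Gucy2d no longer passed with normexp background correction, with slide as a random block or with scan session in the model. Nor did it without low-dose CO at 0 h, high-dose CO at 0 h or high-dose CO at 6 h, or without both low-dose CO at 6 h and low oxygen at 0 h, and under the filter on all 12 arrays it was not tested. In the other 8 contrasts 0 of 51 passed, with 0 to 6 at an unadjusted p under 0.05, and medians between -0.04 and 0.10.

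A count of genes on 1 side of air on all 11 exposed arrays rests on the single air array. Of the 53 pathway genes, 4 lay above air on 11 of 11 (7.55%, against 8.7% of all probes) and 3 below (5.66%, against 7.62%), and of the 7 member probes 0 did either.

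Among the partners and relatives of the synthases, Nostrin, which carries Nos3 from the membrane into the cell, lay above air on 11 of 11 arrays, from 0.24 to 1.63, with its highest value in high-dose CO at 6 h and 1.17 at 2 h. The array at 6 h also had the highest medians of blood cell markers, endothelial markers (0.49, 9 of 9 above air) and mural cell markers (0.43, 8 of 8). At 2 h after high-dose CO the endothelial median was 0.04, with 5 of 9 above air. The part of these markers in the Nostrin values was not tested. Nos2, the inducible synthase, was not well above background on any array. Nos1ap, an adaptor of Nos1, was above air on 10 of 11.

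In arginine and cofactor supply, Ddah1, which breaks down an inhibitor of the synthases, read from -1.30 to 1.18 against air, with its highest value in low oxygen at 0 h. Ass1, which remakes citrulline into arginine, and Arg1, which removes arginine, were likewise highest relative to air on the 2 arrays low in medium spiny neuron markers, at 0.95 and 0.78 in low-dose CO at 6 h and 0.86 each in low oxygen at 0 h. Ddah1 was lowest, from -1.30 to -1.15, on the 4 arrays where all septal and thalamic neuron markers were at least 2-fold below air. The part of these markers was not tested. Gchfr, a regulator of cofactor synthesis, was below air on 11 of 11, from -0.56 to -0.10. None of the 14 genes of this group passed in the model.

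Of the other cyclases, Gucy1a2, the alternative alpha subunit, ranged from -0.91 to 0.22 against air and was lowest on the same 2 arrays, at -0.91 and -0.84. Gucy1b2 was not well above background on any array. Npr3, the clearance receptor of natriuretic peptides, was below air on 11 of 11, from -1.86 to -0.44, where values on the 4 arrays on which it was not well above background are bounds. The choroid plexus and ependyma markers were also below air on these arrays, by medians from -6.43 to -0.35, and their part in the Npr3 values was not tested.

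Several other phosphodiesterases that act on cGMP were, like Gucy1a3, lowest in low oxygen at 0 h. In low oxygen at 0 h Pde1b stood at -1.83 against air, Pde2a at -1.87 and Pde10a at -2.73, and in low-dose CO at 0 h at 1.08, 0.97 and 1.03. In low-dose CO at 6 h they stood at -0.38, -0.43 and -1.12. Medium spiny neuron markers had medians of -3.27, 1.05 and -0.82 on these arrays in that order. The part of these markers in the phosphodiesterase values was not tested. Pde9a, of high affinity for cGMP, was above air on 11 of 11, from 0.13 to 0.68. Among targets, Vasp, a substrate of the kinases, was above air on 11 of 11 from 0.24 to 0.78, and Itpr1 stood at -1.38 in low oxygen at 0 h. Ppp1r17, a substrate of cGMP-dependent kinase in Purkinje cells, had the widest range of the list, from -3.12 to 1.58, its low end being a bound. Hmox1, the inducible enzyme that makes CO from heme, lay between -0.02 and 0.55 against air, and Hmox2 between -0.16 and 0.15. The highest Hmox1 value was in high-dose CO at 6 h, the array with the highest median of blood cell markers. Microglia and endothelial markers also had their highest medians there, 0.47 with 6 of 6 above air and 0.49 with 9 of 9. The part of these lists in the Hmox1 values was not tested.

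**Figure D5:**
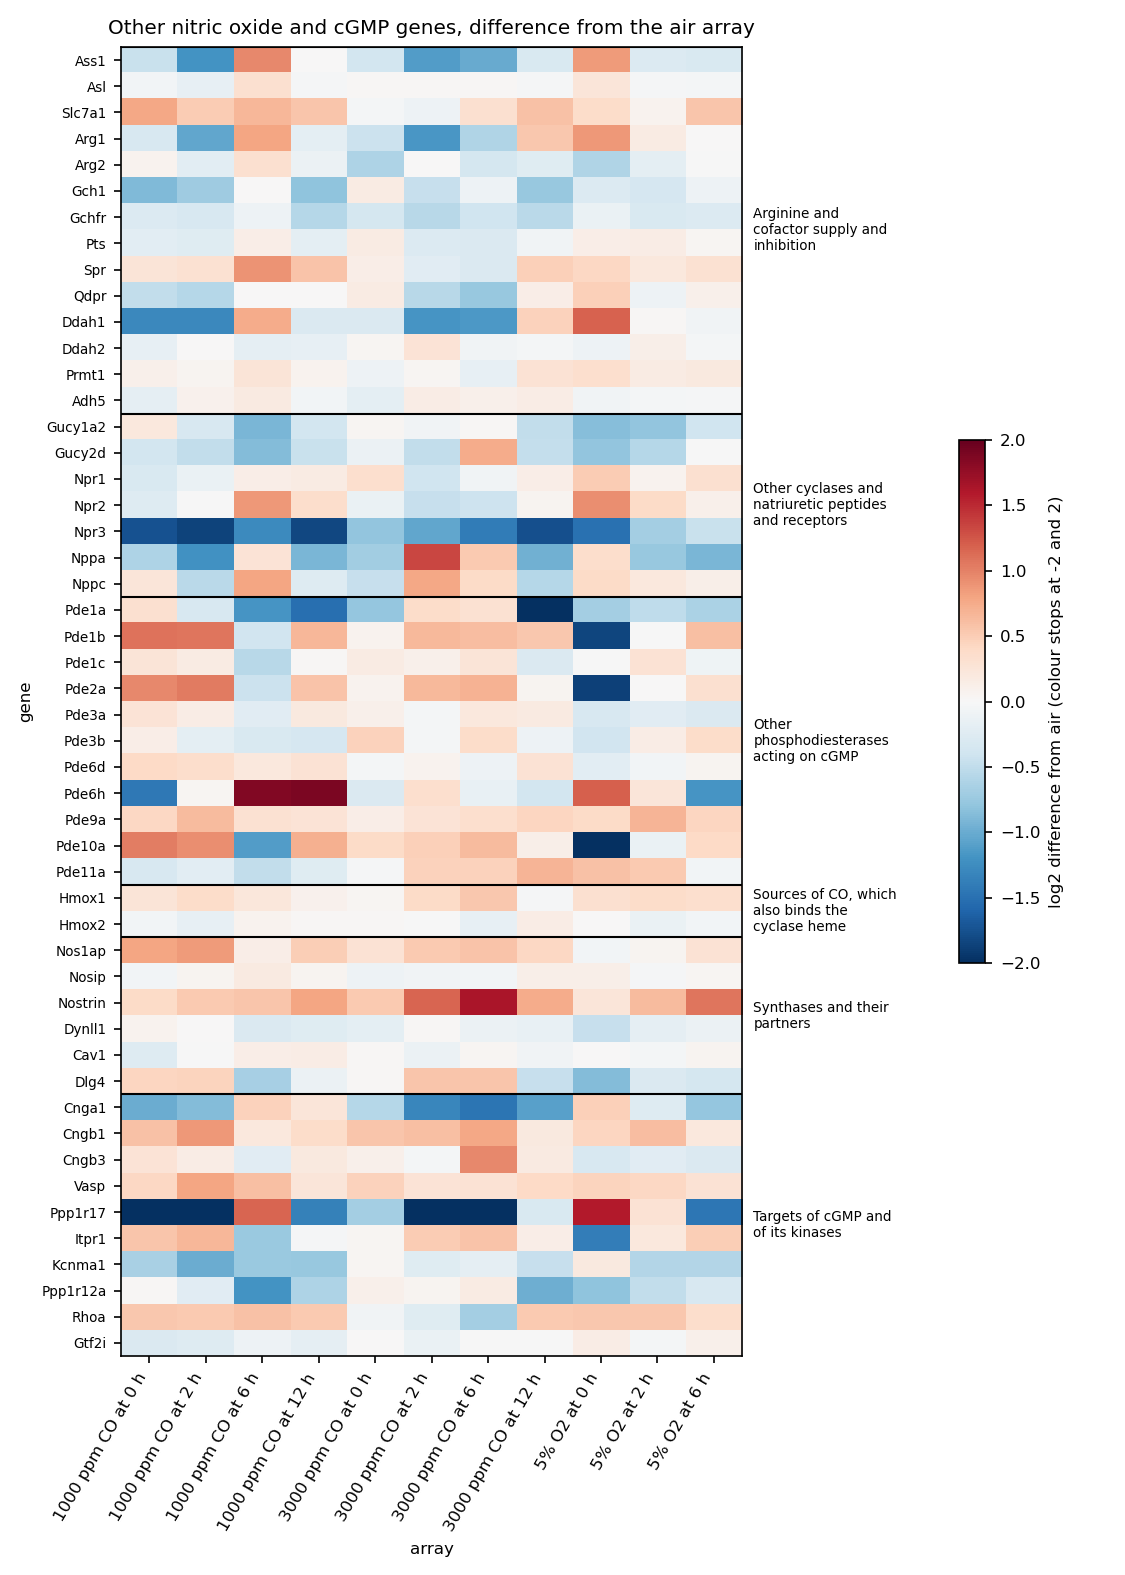
Log2 difference from the air array of other nitric oxide and cGMP genes well above background on at least 1 array, 1 row per gene shown, grouped by role, on the 11 exposed arrays, with colour limited to -2 and 2. Pde1b, Pde2a and Pde10a are darkest blue in low oxygen at 0 h, Nostrin, Pde9a and Vasp are red throughout, and Hmox2 stays pale.

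Pathway genes at least 2-fold from air were then counted by array. In low oxygen at 0 h, 3 of 53 were higher (5.66%, against 3.83% of all probes) and 5 lower (9.43%, against 4.71%), and their median difference was 0.01 against -0.02 for all probes. At 2 h after low-dose CO and at 2 h after high-dose CO, 2 were higher (3.77%, against 4.22% and 2.29% of all probes) and 6 lower (11.3%, against 5.78% and 3.23%). Ass1, Arg1, Ddah1, Npr3 and Ppp1r17 were among the lower genes on both arrays. On both, 6 of 6 septal and thalamic neuron markers were at least 2-fold below air as well, and their part in these counts was not tested. In high-dose CO at 0 h and low oxygen at 2 h, 0 of 53 differed by that much in either direction.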

How the data were processed

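Total RNA of 12 rat striata was labelled with Cy3 and read on one-colour arrays. Per the file headers, the deposited intensity of each spot is the processed signal of Agilent Feature Extraction 10.7.3.1, with background already subtracted; the deposited series table holds log2 values of the same arrays, centred on each array's median, which correlated with the scanner values at 0.9999 or more. Spots marked as outliers were left out and spots of 1 probe averaged, which kept 40998 of 41012 probes. Levels are log2 intensity minus the array's 75th percentile. Of the probes, 21281 took a current symbol from the RefSeq table and 19717 kept the name in the files.

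Exposure and time were fitted as additive factors in limma 3.58.1 (R 4.3.3) with 5 residual degrees of freedom, on 32230 probes well above background on at least 3 arrays. Tests are two-sided, adjusted by Benjamini-Hochberg over all probes at 0.05. With 1 rat per combination, the error comes from the departure from additivity. That departure mixes differences between rats, slides and tissue content with any interaction of exposure and time. The p-values and standard errors therefore do not measure the spread between rats alone. Differences from air have no test. Where a probe was not well above background, a value under its array's lowest signal among probes well above background was raised to that signal. This bound is approximate, because some values not well above background lie over it. Raised values were used for member and pathway differences and for counts against air. The model, the ranks, the correlations and the marker lists used the values as measured. Correlations used 100000 permutations, or all 13824 orders where levels were centred within slides. The model step was tested on simulated data. Python 3.11.15, numpy 2.4.6, pandas 2.3.3 and matplotlib 3.10.9 were used.

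The members, marker and pathway lists were chosen with earlier results of these data known. The rule named all members, with estimates where the unadjusted p was under 0.05 or smallest, the 3 genes most like each member, pathway genes that passed or were the 2 highest and 2 lowest of an array, and Hmox1, Nos2, Gucy1a2, Gucy1b2, Pde1b, Pde2a, Pde9a and Pde10a. Other pathway genes are named because of their values, such as those on 1 side of air on all 11 arrays, and were chosen after these were seen. Some genes that the rule or lists cover are not reported here. Alternatives were normexp (offset 50), quantile normalization, the deposited series values, other filters, slide, position and scan session in the model, and leaving out arrays.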

Additional observations from a re-analysis of the deposited data

How the results depend on the processing

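No paired analysis was possible because each group is 1 array, so the groups share no more than 1 replicate number, given in order only. The number of arrays limits the precision, and dim probes have only bounds. No member probe passed in any contrast under any setting, except Pde5a for high-dose against low-dose CO (0 to 1 passing when an array was left out, with estimates of 0.42 to 0.91). That Pde5a estimate was -0.19 with normexp and -0.38 with scan session, a setting chosen after seeing the data. Against low oxygen the Pde5a estimate was -0.35 with slide as a fixed factor or with scan session, and -0.080 with slide as a random block. With scan session or slide as a fixed factor, the Pde5a estimates rest on 12 h alone among the high-dose CO arrays. Pathway genes passing for high-dose against low-dose CO numbered 0 with normexp, with the filter on all 12 arrays, with slide as a random block, with scan session, and without low-dose CO at 6 h and low oxygen at 0 h. They numbered 2 with position on the slide and 0 to 3 when an array was left out. For low-dose CO against low oxygen the range was 0 to 6, with 6 without low-dose CO at 6 h. Pairs at least 2-fold higher than air were 18 at 1.5-fold, 0 at 3-fold and 3 to 4 when an array was left out. Pairs lower were 14 at 1.5-fold, 2 with normexp, 2 with the deposited series values and 1 to 4 when an array was left out. The Nos1 difference in high-dose CO at 12 h was 0.17 with the deposited series values. Normexp moved the median of all probes against air by up to 1.03 (low-dose CO at 6 h). Relations to marker lists that passed were 2 with normexp, 1 without those 2 arrays and 3 to 6 when an array was left out. Gucy1b3 with medium spiny neuron markers was 0.744 without those 2 arrays (adjusted p = 0.123). Prkg2 with them was -0.772 with normexp (adjusted p = 0.0532) and -0.602 without those 2 arrays (adjusted p = 0.170). Nos3 with vascular markers was 0.485 with normexp (adjusted p = 0.317), 0.660 with the series values (adjusted p = 0.0557), 0.692 without those 2 arrays (adjusted p = 0.130), 0.754 centred within slides, a setting chosen after seeing the data (adjusted p = 0.0691), and 0.626 to 0.821 when an array was left out. All probes passing for high-dose against low-dose CO ranged from 0 to 2618 (1423 as reported), and for low-dose CO against low oxygen from 0 to 2117 (100 as reported). For low-dose CO against air they ranged from 0 to 550 (42 as reported). The causes were not tested.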
